A study of Mus musculus with 4 samples.

Results

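The interferon-inducible GTPases studied here are 10 mouse genes of 2 families. They are the guanylate-binding proteins Gbp2, Gbp3, Gbp4, Gbp5, Gbp7 and Gbp8 and the immunity-related GTPases Irgm1, Irgm2, Igtp and Iigp1. They were chosen by their symbols among 55385 genes, and all 10 had enough counts to be tested. The cells came from spleens of untreated wild-type C57BL6 mice, and the study asked how type 1 conventional dendritic cells (cDC1) mature there in the absence of infection. CITE-seq was used, in which every cell yields counts of its RNA and of tagged surface antibodies, both as unique molecular identifiers (UMIs). Dendritic cells of 2 mice were enriched, and sorted cDC1, sorted type 2 conventional dendritic cells (cDC2) and unselected live cells were pooled for 2 libraries, numbered here by their barcode suffix. The labels do not tie a library to a single mouse, and the p-values reflect only how far these libraries differ, a spread that may be technical.

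A total of 9 classes of cells were taken by fixed UMI thresholds, and each class holds wild-type, untreated cells of both libraries. A cDC1 had at least 3 antibody UMIs of XCR1 and at most 2 of CD172a. Immature cDC1 had at most 1 UMI of Ccr7, 1 of Fscn1 and 9 of Cxcl9 RNA (4776 cells in library 1 and 6900 in library 2). Early cDC1 had at most 1 Ccr7 and at least 10 Cxcl9 UMIs (468 and 929 cells). Intermediate cDC1 had at least 2 Ccr7 and at most 1 Fscn1 UMI (179 and 236 cells). Late cDC1 had at least 5 Ccr7 and at least 2 Fscn1 UMIs (103 and 125 cells). Early, intermediate and late name thresholds and not times. The other classes were immature cDC2 (1619 and 1699 cells), mature cDC2 (94 and 109), plasmacytoid DC (68 and 57), T cells (686 and 558) and NK cells (232 and 311). Of 932 cells past the late Ccr7 and Fscn1 thresholds in any lineage, 665 had fewer than 3 XCR1 UMIs, so late cDC1 are the part of those cells that still showed surface XCR1.

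Interferon gamma binds its receptor Ifngr1 and Ifngr2 and acts on genes through gamma-activated sites (GAS) in their promoters. Type I interferon acts through interferon-stimulated response elements (ISRE), which the transcription factor Irf1 also binds. Guanylate-binding proteins are large GTPases that assemble on pathogen vacuoles and bacteria and help inflammasomes to form. In mice the immunity-related GTPase Iigp1 is an effector that attacks vacuole membranes, while Irgm1, Irgm2 and Igtp (also called Irgm3) sit on the cell's own membranes and hold effectors inactive there. Cxcl9, the chemokine that defines early cDC1, is itself a classical target of interferon gamma, and it draws T and NK cells that carry its receptor.

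The genes lie in clusters. In the RefSeq annotation of GRCm38.p6, the build of the files, Gbp2, Gbp3, Gbp5 and Gbp7 lie between positions 142496934 and 142638008 of chromosome 3. Gbp4 and Gbp8 lie between positions 105012513 and 105139586 of chromosome 5. Irgm1 lies at 48865245 to 48871420 of chromosome 11, and Igtp and Irgm2 are neighbours between 58199556 and 58222783 of the same chromosome. Members of both families are close paralogs, and how reads shared between copies were counted is not stated in any source used here, so levels of neighbouring paralogs may be partly mixed.

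Promoters of 7 members were examined. None was available for Gbp4 and Gbp8, and Iigp1 was left out, so the counts below do not cover these genes. Of the 7, 5 are printed because they hold the response elements of genes with different stage patterns. Each is the stretch of 170 bases before the RefSeq start, 5′ to 3′ on the gene's strand, with capitals for matches on either strand to the GAS letters TTCNNNGAA or to the ISRE letters GAAA, any 2 bases and GAAA. Irgm1, Igtp and Irgm2 were highest in early cDC1, and Gbp2 and Gbp5 in late cDC1.
Irgm1, chr11:48871421-48871590, minus strand: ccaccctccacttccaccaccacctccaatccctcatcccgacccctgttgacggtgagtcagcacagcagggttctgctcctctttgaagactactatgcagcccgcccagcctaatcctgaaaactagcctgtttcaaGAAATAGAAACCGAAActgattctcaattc
Igtp, chr11:58199386-58199555, plus strand: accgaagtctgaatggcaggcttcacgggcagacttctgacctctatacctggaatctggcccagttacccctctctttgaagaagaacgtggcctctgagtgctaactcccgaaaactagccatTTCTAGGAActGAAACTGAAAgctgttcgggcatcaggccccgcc
Irgm2, chr11:58214807-58214976, plus strand: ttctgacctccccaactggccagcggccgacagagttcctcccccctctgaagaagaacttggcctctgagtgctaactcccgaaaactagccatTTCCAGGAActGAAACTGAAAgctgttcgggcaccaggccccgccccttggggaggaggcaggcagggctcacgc
Gbp2, chr3:142620493-142620662, plus strand: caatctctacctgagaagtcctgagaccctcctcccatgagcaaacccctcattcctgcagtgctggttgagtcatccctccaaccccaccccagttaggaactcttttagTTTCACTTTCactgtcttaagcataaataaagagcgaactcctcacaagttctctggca
Gbp5, chr3:142496764-142496933, plus strand: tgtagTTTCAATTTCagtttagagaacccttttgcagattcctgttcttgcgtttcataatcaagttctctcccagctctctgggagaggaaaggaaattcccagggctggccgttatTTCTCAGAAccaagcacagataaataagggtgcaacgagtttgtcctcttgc
An ISRE match was found within 250 bases before to 50 after the start in 7 of the 7 members examined, against 3.44% of 32851 mouse windows of that length. GAS matches were found in 4 of the 7 (Gbp5, Gbp7, Igtp and Irgm2), against 8.30% of windows. The capitals of Irgm1 are 2 overlapping ISRE matches, and Gbp5 had another GAS match at position -245, outside the printed stretch. The windows of Igtp and Irgm2 were 91.1% identical over 271 aligned bases. In both, the first base of the ISRE lay 11 bases after the first base of the GAS. Both stage patterns thus occur among genes with an ISRE match, and a match is a description of letters, not of binding.

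The class names were checked against marker genes. Summed RNA of 8 cDC1 markers was 4594 and 5062 CPM (UMIs scaled to the class's total of RNA UMIs in that library) in immature, 4683 and 5172 in early, 3474 and 3617 in intermediate and 2366 and 3070 in late cDC1 of libraries 1 and 2, against 1100.5 and 1192 in immature cDC2. The same sum was 4633 and 4233 CPM in plasmacytoid DC, of which Irf8 gave 3839 and 3646, so it did not separate that class from cDC1. In NK cells it was 1558 and 1579, with Irf8 at 1440 and 1474. Surface XCR1 averaged 5.13 and 5.38 UMIs per cell in late and 7.31 and 7.03 in immature cDC1, against 0.985 and 0.509 in plasmacytoid DC. Markers of other cells also moved with the stages. The 11 T cell markers summed to 158 and 338 CPM in intermediate cDC1 against 22.5 and 22.8 in immature cDC1 and 6947 and 7172 in T cells. The 7 B cell markers summed to 75.2 and 104 CPM in intermediate and 20.2 and 14.8 in immature cDC1. The 6 erythroid markers summed to 1394 and 495 CPM in intermediate and 334 and 494 in immature cDC1, so they were raised in library 1 only. The 8 red pulp macrophage markers summed to 214 and 198 CPM in late and 36.2 and 42.3 in immature cDC1. Of these, Vcam1 gave 135 and 139.8 in late and 3.83 and 4.82 in immature cells. Spic gave 69.6 and 47.8 in late and 1.40 and 0.849 in immature cells. Hmox1 was lower in late cells, at 5.57 and 10.5 against 25.0 and 29.9, and C1qa was at 1.39 and 0 in late cells. When cDC1 with T, NK, B or plasmacytoid DC genes were left out, 1 call among the GTPases changed, that of Gbp7 in intermediate cells. The part of macrophage and erythroid marker RNA in the results was not tested. Class totals ranged from 248760 RNA UMIs (plasmacytoid DC, library 2) to 57699560 (immature cDC1, library 2). The libraries shared 61 barcodes, 41 of them in kept cells, and differed well beyond sampling noise (chi-square 22.9 per degree of freedom over 18798 genes). Library 2 was the higher for Iigp1 and Gbp2 in 8 of 9 classes. Its surface Ly6A_Ly6E, an interferon-inducible antigen, was higher in all cDC1 and cDC2 classes and in NK cells. In immature cDC1 it was at 11.3 UMIs per cell against 6.79 in library 1. In plasmacytoid DC (107 against 136) and T cells (17.8 against 21.9) it was lower in library 2.

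Early cDC1 had more RNA of every member than immature cDC1. All 10 rose, where 4.54% of 10987 genes tested rose and 7.26% changed in either direction (edgeR quasi-likelihood test with Benjamini-Hochberg adjustment at 0.05). Because early cells were taken by Cxcl9, an interferon gamma target, the gate itself favoured genes that move with Cxcl9. That holds for every comparison with early cDC1 below. The effector Iigp1 had 32.4 and 76.1 CPM in early cDC1 of libraries 1 and 2, against 0.512 and 2.74 CPM in immature cDC1. The difference was 5.13 on the log2 scale (SE 0.21, adjusted p = 8.28e-18), and the groups did not overlap, although Iigp1 was 2.35 times higher in library 2 than in library 1 in early and 5.35 times in immature cDC1. Gbp5, a guanylate-binding protein that helps inflammasomes to assemble, had 27.3 and 35.1 CPM in early and 0.467 and 1.07 CPM in immature cDC1 (log2 5.35, SE 0.20, adjusted p = 1.52e-18). Gbp2, which coats pathogen vacuoles, had 25.5 and 40.6 CPM against 0.690 and 2.79 CPM (log2 4.29, SE 0.22, adjusted p = 1.74e-15).

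Like the other members, the 3 regulatory GTPases were already detected in immature cells and rose in early cells. Irgm1 stood at 35.6 and 42.6 CPM in early and 9.83 and 12.2 CPM in immature cDC1, a log2 difference of 1.90 (SE 0.12, adjusted p = 6.31e-13). Igtp stood at 27.9 and 31.1 CPM against 7.14 and 8.06 CPM, a log2 difference of 2.03 (SE 0.13, adjusted p = 8.23e-13). Irgm2 stood at 10.5 and 8.25 CPM against 2.51 and 2.89 CPM, a log2 difference of 1.81 (SE 0.21, adjusted p = 2.70e-07). In all 3 genes both early values lay above both immature values, and the libraries were close to each other. The remaining members, Gbp3, Gbp4, Gbp7 and Gbp8, differed by log2 1.30 to 3.26, with Gbp4 at 16.8 and 22.3 CPM in early and 2.14 and 2.27 CPM in immature cells. Gbp7 was the weakest of the 10 in counts, with 47 UMIs in early cDC1, and it was not past the threshold when lineage was set by the higher of the 2 antibodies (log2 0.50, adjusted p = 0.275).

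**Figure D1:**
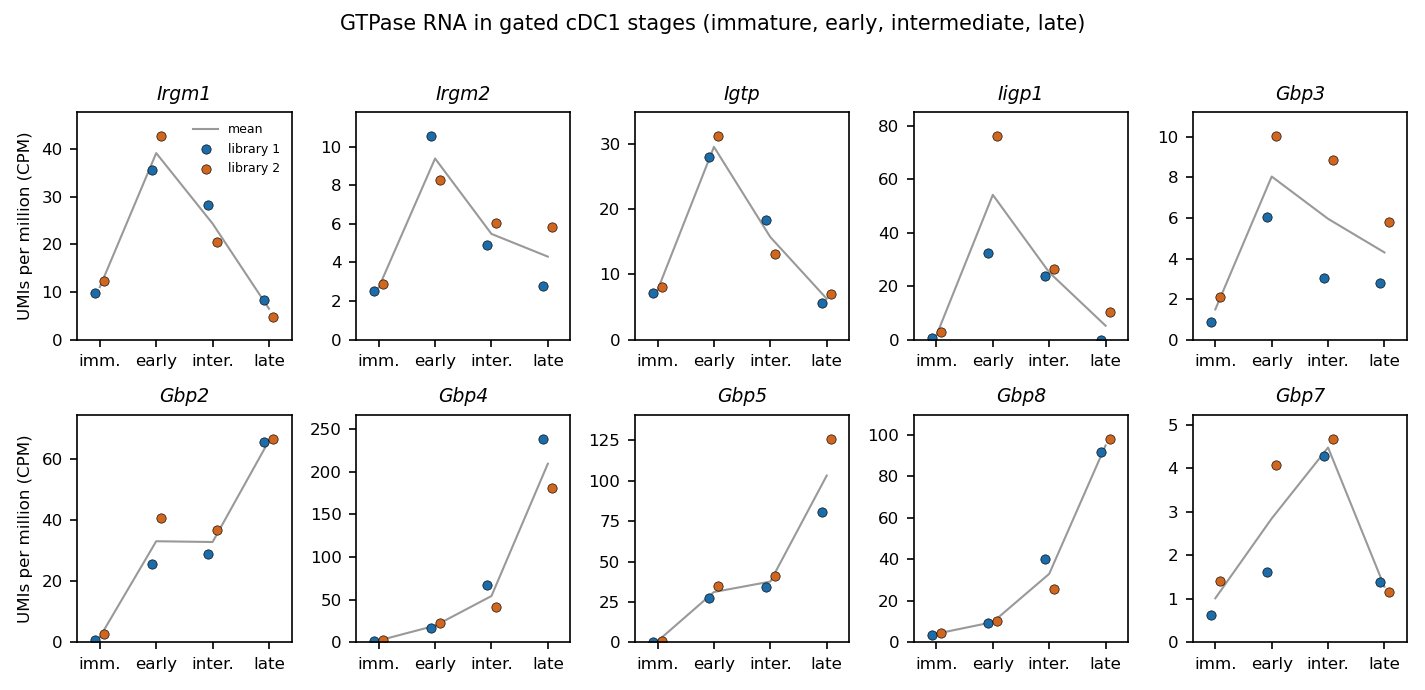
CPM of each GTPase (y axis, own scale per gene) in immature, early, intermediate and late cDC1 (x axis), with a point per library and a line through the mean of the 2 libraries. Irgm1, Irgm2, Igtp, Iigp1 and Gbp3 are highest in early cells of both libraries, while Gbp2, Gbp4, Gbp5 and Gbp8 are highest in late cells, where Gbp4 reaches 238 and 181 CPM.

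In late cDC1 fewer members were raised. Gbp2, Gbp4, Gbp5 and Gbp8 were higher than in immature cDC1 and the other 6 members were not past the threshold, where 21.2% of genes rose, 27.4% fell and 48.6% changed. Gbp4, a guanylate-binding protein of the chromosome 5 cluster, had 238 and 181 CPM in late and 2.14 and 2.27 CPM in immature cDC1 (log2 6.67, SE 0.21, adjusted p = 2.30e-22). Gbp5 had 80.7 and 126 CPM in late and 0.467 and 1.07 CPM in immature cDC1 (log2 7.13, SE 0.26, adjusted p = 1.82e-20). Gbp8, of the same cluster as Gbp4, had 91.8 and 97.8 CPM against 3.67 and 4.70 CPM (log2 4.62, SE 0.21, adjusted p = 5.73e-18). Gbp2 had 65.4 and 66.4 CPM in late cDC1, against 0.690 and 2.79 CPM in immature cDC1 (log2 5.32, SE 0.35, adjusted p = 6.08e-14). Its immature level was 4.05 times higher in library 2 than in library 1, and the log2 value was 6.72 in library 1 alone and 4.64 in library 2 alone.

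Gbp3 was just short of the threshold in late cells (log2 1.64, adjusted p = 0.0677) and passed in 7 alternative analyses, among them with doublets kept (adjusted p = 0.00578) and DESeq2 (adjusted p = 0.00743). The immunity-related GTPases were low in late cDC1. Irgm1 had 8.35 and 4.66 CPM (10 UMIs in all) against 9.83 and 12.2 CPM in immature cells, a log2 value of -0.68 (adjusted p = 0.217). Igtp had 5.57 and 6.99 CPM in late cells, also from 10 UMIs (log2 -0.14, adjusted p = 0.826). Iigp1 had 0 UMIs in the 103 late cells of library 1, where 3 UMIs would be 4.17 CPM, and 10.5 CPM (9 UMIs) in library 2. Its log2 value of 1.85 against immature cells was not past the threshold (adjusted p = 0.0750), but it passed in 5 alternative analyses, among them with doublets kept (log2 2.54, adjusted p = 5.63e-04) and DESeq2 (log2 2.03, adjusted p = 0.0340). All late values of Irgm1 and Igtp thus lay below those of immature cells without passing the test, and a difference of this size was not detectable at these counts.

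Set against early cDC1, late cDC1 differed in 7 members, 4 higher and 3 lower, where 19.8% of genes were higher, 24.9% lower and 44.7% changed. Gbp4 was higher by log2 3.41 (SE 0.19, adjusted p = 1.27e-15), Gbp8 by 3.32 (SE 0.22, adjusted p = 6.23e-14), Gbp5 by 1.78 (SE 0.20, adjusted p = 7.85e-09) and Gbp2 by 1.03 (SE 0.28, adjusted p = 0.00290). Irgm1 fell by 2.58 on the log2 scale (SE 0.37, adjusted p = 7.36e-07), Igtp by 2.17 (SE 0.39, adjusted p = 2.53e-05) and Iigp1 by 3.27 (SE 0.50, adjusted p = 2.46e-06). Gbp3, Gbp7 and Irgm2 were not past the threshold, with 7, 2 and 7 UMIs in late cells. With gates on scaled UMIs, Irgm2 (log2 -1.78, adjusted p = 0.02) and Gbp3 (log2 -1.39, adjusted p = 0.0497) passed. The 3 comparisons with immature cDC1 share that class, and the comparisons with early cDC1 share the early class, so their results are not independent of each other.

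Intermediate cDC1 held both sets at once. A total of 9 members were higher than in immature cDC1, where 12.9% of genes rose and 24.5% changed, and Irgm2 was just short of the threshold (log2 1.07, adjusted p = 0.0534). Irgm2 passed in several alternative analyses, among them DESeq2 (log2 1.13, adjusted p = 0.0278) and gates on scaled UMIs (log2 1.30, adjusted p = 0.0344). Gbp4 had 66.7 and 42.0 CPM in intermediate and 2.14 and 2.27 CPM in immature cDC1, a log2 value of 4.63 (SE 0.23, adjusted p = 1.36e-16). Gbp8 had 40.4 and 25.7 CPM against 3.67 and 4.70 CPM, a log2 value of 2.98 (SE 0.21, adjusted p = 1.21e-12). Iigp1 had 23.9 and 26.6 CPM against 0.512 and 2.74 CPM, a log2 value of 3.96 (SE 0.34, adjusted p = 1.05e-10). Gbp7 had 4.28 and 4.67 CPM in intermediate cells from 17 UMIs (log2 2.12, adjusted p = 0.00180). The call for Gbp7 was lost with gates on scaled UMIs (log2 1.42, adjusted p = 0.120) and when cDC1 with T, NK, B or plasmacytoid DC genes were left out (log2 1.26, adjusted p = 0.224).

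Against early cDC1, 5 members differed in intermediate cDC1, where 9.17% of genes were higher, 6.91% lower and 16.1% changed. Gbp4 was higher by log2 1.36 (SE 0.21, adjusted p = 1.02e-05) and Gbp8 by 1.68 (SE 0.22, adjusted p = 1.03e-06). With early cells at 20 or more Cxcl9 UMIs the Gbp4 value was 0.57 (adjusted p = 0.0649), and at 40 or more it was -0.14 (adjusted p = 0.778). Irgm1 fell by 0.75 (SE 0.19, adjusted p = 0.00455), Igtp by 0.97 (SE 0.22, adjusted p = 0.00150) and Iigp1 by 1.17 (SE 0.26, adjusted p = 0.00123). The Iigp1 call was lost in DESeq2 (log2 -0.86, adjusted p = 0.427) and without library as a block (adjusted p = 0.0898). Gbp2 stood at 28.7 and 36.9 CPM in intermediate and 25.5 and 40.6 in early cells, and Gbp5 at 34.3 and 41.1 against 27.3 and 35.1, with log2 values of -0.05 (adjusted p = 0.934) and 0.24 (adjusted p = 0.476). In late against intermediate cDC1, Gbp2, Gbp4, Gbp5 and Gbp8 were higher by log2 1.08 to 2.05, and Irgm1 and Iigp1 fell by 1.83 and 2.11 (adjusted p = 0.00142 and 0.00924), where 31.2% of genes changed. Without the library block Gbp2 (adjusted p = 0.0752) and Iigp1 (adjusted p = 0.143) were no longer past the threshold there, and neither was Iigp1 with doublets kept (log2 -1.02, adjusted p = 0.110).

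A peak was called where a stage had the highest CPM in both libraries and was past the threshold against each of the other 3 stages. Irgm1, Igtp and Iigp1 peaked in early cDC1. Gbp2, Gbp4, Gbp5 and Gbp8 peaked in late cDC1. Gbp3 and Irgm2 were highest in early cells of both libraries and Gbp7 in intermediate cells, but each was past the threshold against immature cells only. With early cells at 20 or more Cxcl9 UMIs, Gbp3 and Irgm2 also passed against intermediate cells (adjusted p = 0.0469 and 0.0106). They then passed against late cells as well (adjusted p = 0.0305 and 0.0163), so their missing call depended on the early threshold. No GTPase had a called peak in intermediate cDC1. Gbp3 had 6.07 and 10.0 CPM in early, 3.06 and 8.86 in intermediate and 2.78 and 5.82 in late cDC1, so these 3 stages overlapped.

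How the early peak and part of the late peak depend on the Cxcl9 threshold was seen by dividing cDC1 with at most 1 Ccr7 UMI by their Cxcl9 UMIs. Cells just inside the threshold, with 10 to 12 Cxcl9 UMIs, had 5.82 and 9.29 CPM of Iigp1, and cells just outside, with 7 to 9, had 4.02 and 9.06. For Irgm1 these values were 10.8 and 14.7 just inside and 9.38 and 14.7 just outside. Gbp2 had 10.8 and 8.80 CPM just inside and 1.34 and 10.6 just outside. Iigp1 and Irgm1 were thus nearly level across the threshold, while Gbp2 differed across it in library 1 and not in library 2. Irgm1 had 9.75 and 11.3 CPM at 0 Cxcl9 UMIs, 9.64 and 22.8 at 10 to 19, 40.5 and 47.2 at 20 to 39 and 109 and 90.2 at 40 or more. Iigp1 had 0.134 and 1.31 CPM at 0, 5.56 and 23.8 at 10 to 19, 23.1 and 80.0 at 20 to 39 and 132 and 215 at 40 or more. These 2 genes were highest in the last bin of 79 and 162 cells, whose median depth of 10047 and 9630.5 RNA UMIs was above the 8798 and 7535 of cells without Cxcl9.

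Gbp2 and Gbp5 followed Cxcl9 as well, and Gbp8 did so over a narrower range. Gbp5 had 0.358 and 0.516 CPM at 0 Cxcl9 UMIs, 1.48 and 7.40 at 10 to 19, 16.6 and 27.8 at 20 to 39 and 126 and 123 at 40 or more, which is at the level of late cDC1 (80.7 and 126). Gbp2 had 82.6 and 110.2 CPM at 40 or more, above its late level of 65.4 and 66.4. Gbp4 had 50.0 and 62.0 CPM there, below its late level in both libraries. Gbp8 had 15.1 and 16.6 CPM at 40 or more and 2.91 and 3.85 at 0, against 91.8 and 97.8 in late cDC1. With early cDC1 set at 20 or more Cxcl9 UMIs, the late excess of Gbp2 over early cells was log2 0.30 (adjusted p = 0.409), and at 40 or more it was -0.46 (adjusted p = 0.206) for Gbp2 and -0.16 (adjusted p = 0.581) for Gbp5. Gbp4 and Gbp8 were past the threshold in late against early cells at both, with log2 1.91 and 2.65 at 40 or more (adjusted p = 2.93e-09 and 1.03e-09). The late peak thus depended on the early threshold for Gbp2 and Gbp5. With gates on scaled UMIs Gbp2 was not past the threshold in late against early (log2 0.58, adjusted p = 0.0640) or late against intermediate cDC1 (log2 0.68, adjusted p = 0.0933).

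**Figure D2:**
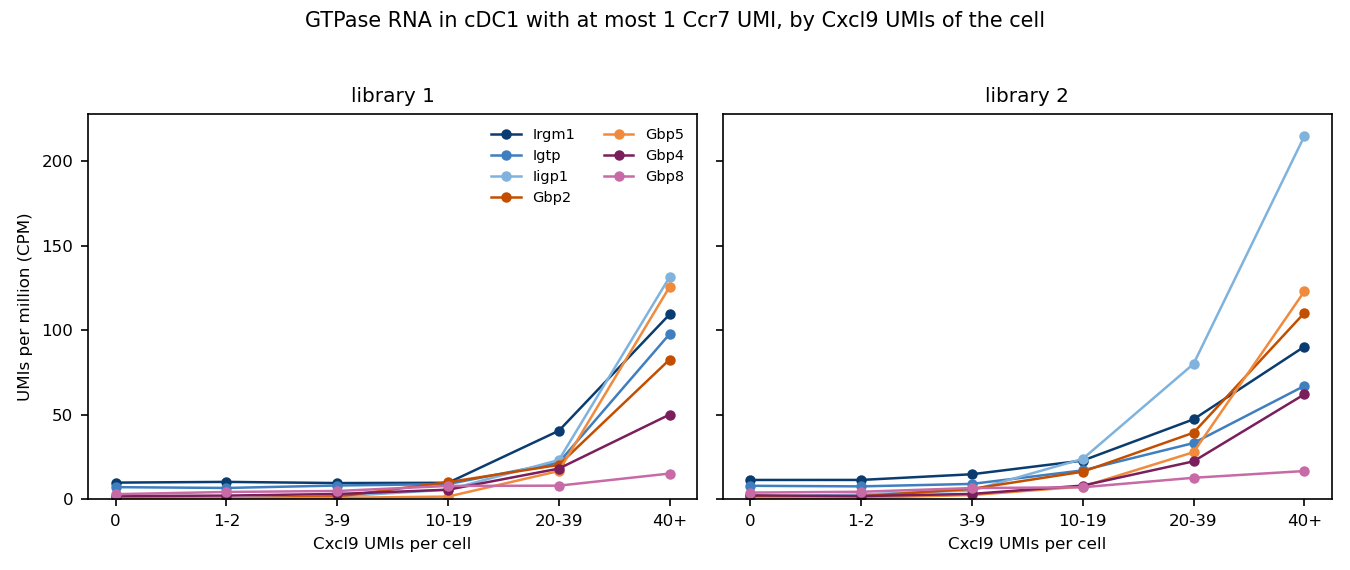
CPM (y axis) of 7 GTPases in cDC1 with at most 1 Ccr7 UMI, by the Cxcl9 UMIs of the cell (x axis, bins), in library 1 (left) and library 2 (right). Levels are at most 14.7 CPM up to 9 Cxcl9 UMIs and are highest at 40 or more, where Iigp1 reaches 132 and 215 CPM and Gbp8 15.1 and 16.6.

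The intermediate class also divided by Cxcl9, which was looked at after its values were seen and was not tested. Intermediate cells with 10 or more Cxcl9 UMIs (51 and 76 cells) had 66.2 and 35.9 CPM of Irgm1, those with 1 to 9 (76 and 91 cells) 9.53 and 8.83, and those with 0 (52 and 69 cells) 8.42 and 14.7. Iigp1 had 68.0 and 49.5 CPM at 10 or more, 2.72 and 3.79 at 1 to 9 and 0 and 25.8 at 0. Gbp5 had 80.9 and 74.3 CPM at 10 or more against 9.53 and 20.2 at 1 to 9. Irgm1, Iigp1, Gbp2 and Gbp5 were thus highest in the Cxcl9-rich part of the intermediate class in both libraries. Igtp had 38.6 and 14.9 CPM at 10 or more, 8.17 and 10.1 at 1 to 9 and 8.42 and 14.7 at 0, so in library 2 its level at 10 or more was close to that at 0. Gbp4 had 101 and 45.8 CPM at 10 or more, 27.2 and 40.4 at 1 to 9 and 95.4 and 38.7 at 0, and Gbp8 had 46.0 and 35.9 CPM at 10 or more, 29.9 and 18.9 at 1 to 9 and 53.3 and 20.3 at 0. In library 1 neither gene was ordered by Cxcl9, while in library 2 both were highest at 10 or more. Gbp7 had 14.03 and 14.7 CPM at 0 Cxcl9 UMIs and 0 to 2.48 CPM in the other parts. Median depth differed between these parts, at 10383 and 9092 RNA UMIs at 10 or more and 5763 and 5759 at 0, and its share in these differences was not tested.

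**Figure D3:**
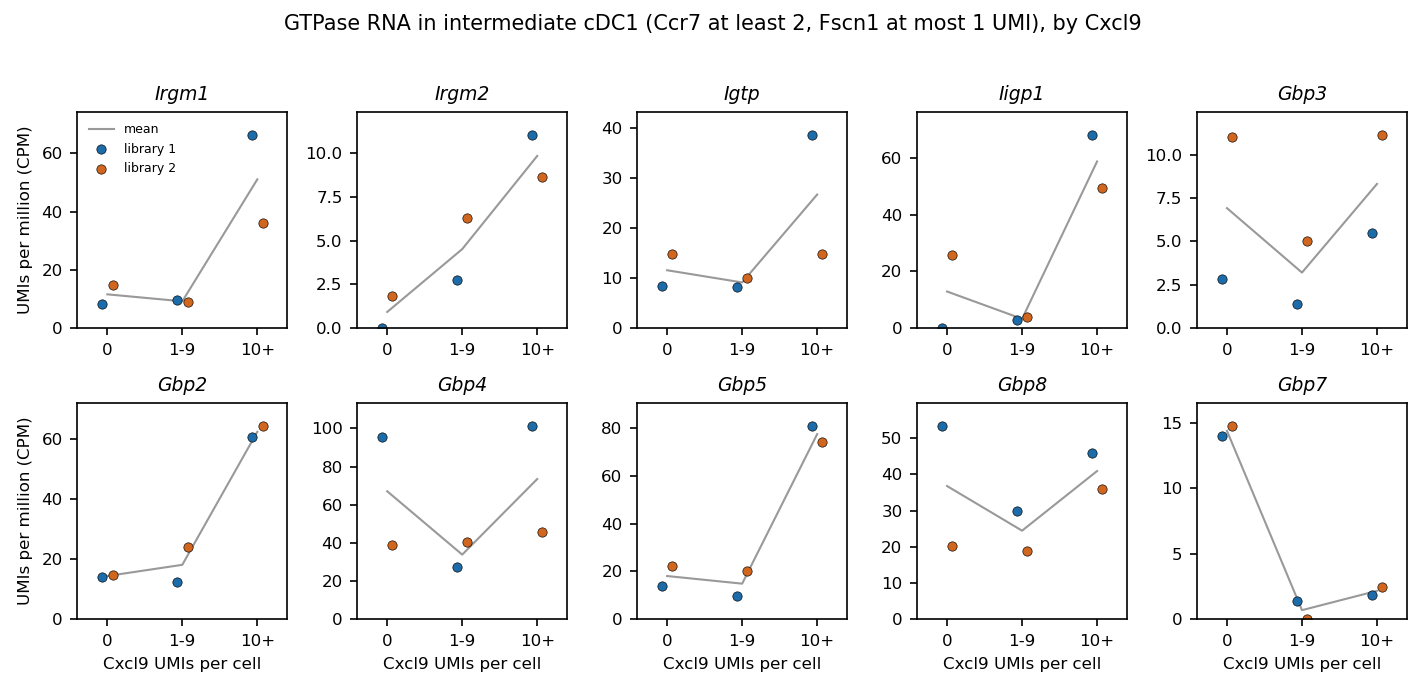
CPM of each GTPase (y axis, own scale per gene) in intermediate cDC1 with 0, 1 to 9 and 10 or more Cxcl9 UMIs (x axis), with a point per library and a line through the mean. Irgm1, Iigp1, Gbp2 and Gbp5 are highest at 10 or more Cxcl9 UMIs in both libraries, whereas Gbp7 is highest at 0, at 14.03 and 14.7 CPM.

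The summed RNA of the 2 families differed in its course over the stages. Summed over the 6 Gbp members, RNA was 8.48 and 14.3 CPM in immature, 86.4 and 123 in early, 177 and 159 in intermediate and 480.1 and 478 in late cDC1. The 4 immunity-related GTPases summed to 20.002 and 25.9 CPM in immature, 106 and 158 in early, 75.2 and 66.2 in intermediate and 16.7 and 28.0 in late cDC1. Among cDC1 with 20 or more Ccr7 UMIs, Gbp4 had 201 and 149 CPM and Gbp8 88.4 and 81.9, while Irgm1 had 7.69 and 4.25 and Iigp1 0 and 4.25. At 2 to 4 Ccr7 UMIs Gbp4 was at 29.6 and 25.3 CPM and Irgm1 at 25.2 and 27.2. At 10 to 19 Irgm1 had 45.3 and 12.2 CPM and Iigp1 35.9 and 20.4, against 11.8 and 17.0 and 7.09 and 28.3 at 5 to 9, so neither was ordered along Ccr7 in library 1. Gbp3 and Gbp7 did not follow the Gbp sum, with Gbp7 at 7.41 and 8.43 CPM at 2 to 4 and 1.28 and 1.064 at 20 or more, and Gbp3 at 2.96 and 10.3 and at 3.84 and 3.19 CPM in those bins. The Gbp sum was highest and the Irg sum back near its immature level in late cells of both libraries.

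Cell by cell, Gbp RNA was common in late cells and Irg RNA was not. A Gbp UMI was seen in 85.4% and 88.0% of late cells and in 6.89% and 9.06% of immature cDC1, and an Irg UMI in 8.74% and 11.2% of late and 15.4% and 16.8% of immature cells. After each cell was thinned to 2000 RNA UMIs, the Gbp share was 63.7% (95% Clopper-Pearson interval 53.6 to 73.0) and 53.2% (44.1 to 62.2) in late and 1.94% (1.57 to 2.38) and 2.78% (2.397 to 3.202) in immature cDC1. The thinned Irg share was 3.92% (1.08 to 9.74) and 7.26% (3.37 to 13.3) in late and 3.61% (3.09 to 4.18) and 4.45% (3.96 to 4.97) in immature cDC1, so at equal depth the Irg shares of these classes overlapped. In early cDC1 it was 15.0% (11.8 to 18.5) and 21.1% (18.5 to 23.9). These intervals cover counting error only, and none of the 9 classes is known to lack these RNAs, so free RNA was not measured against a negative class. Early cells with an Irg UMI had 169 and 199 CPM of the Gbp members, against 38.7 and 51.3 CPM in early cells without one. In the early class, Gbp and Irg RNA thus occurred in cells together, with median depths of 10223.5 and 9705 RNA UMIs in cells with an Irg UMI and 9838 and 9105.5 in those without. In late cells no such order held in both libraries, with 359 and 676 CPM in cells with an Irg UMI against 495 and 451 in those without, from 9 and 14 cells.

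The immature classes of cDC1 and cDC2 differed already. Immature cDC2 had more RNA of all 10 members than immature cDC1, where 24.3% of genes were higher and 49.9% changed. The gates were not alike, since cells with 10 or more Cxcl9 UMIs were kept out of immature cDC1 but not out of immature cDC2. The part of this gate difference in the values below was not tested. Gbp7 had 10.9 and 13.1 CPM in immature cDC2 and 0.623 and 1.40 CPM in immature cDC1 (log2 3.41, SE 0.22, adjusted p = 2.41e-14). Gbp8 had 34.4 and 33.2 CPM against 3.67 and 4.70 CPM (log2 2.88, SE 0.14, adjusted p = 3.95e-17), so that its immature cDC2 level was that of intermediate cDC1. Gbp5 had 6.15 and 8.63 CPM against 0.467 and 1.07 CPM (log2 3.08, SE 0.27, adjusted p = 3.51e-11). The 4 immunity-related GTPases differed less, by log2 0.70 (Irgm2) to 1.26 (Iigp1), and the Iigp1 call was lost in DESeq2 (adjusted p = 0.0658) and without the library block (adjusted p = 0.109). Neutrophil markers summed to 1410 and 1148 CPM in immature cDC2 and 115 and 109 in immature cDC1. In immature cDC2 S100a8 gave 596 and 474 and S100a9 807 and 668 CPM of this, while Retnlg, Csf3r and Ly6g were at 0 to 5.13. The 8 red pulp macrophage markers summed to 232 and 227 CPM in immature cDC2 and 36.2 and 42.3 in immature cDC1. The 6 nonclassical monocyte markers summed to 1343 and 1155 against 707 and 740 CPM. Of these, Adgre4 was higher in immature cDC2 (20.3 and 20.1 against 0.267 and 0.329) and Treml4 lower (38.9 and 45.2 against 120 and 127). The part of such RNA in these differences was not tested.

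Mature cDC2 also carried the late set. Gbp2, Gbp3, Gbp4, Gbp5 and Gbp8 were higher and Igtp lower than in immature cDC2, where 27.7% of genes changed. Gbp2 had 103 and 144 CPM in mature cDC2, its highest level in any class, against 6.99 and 17.5 CPM in immature cDC2 (log2 3.41, SE 0.34, adjusted p = 1.56e-09). Gbp5 had 89.8 and 56.5 CPM against 6.15 and 8.63 CPM (log2 3.37, SE 0.34, adjusted p = 2.61e-09), and Gbp4 had 87.2 and 66.7 CPM against 13.3 and 12.1 CPM (log2 2.67, SE 0.34, adjusted p = 2.05e-07). Gbp8 had 68.7 and 87.3 CPM against 34.4 and 33.2 CPM (log2 1.28, SE 0.26, adjusted p = 2.21e-04). Irgm2 had 0 UMIs in 203 mature cDC2. With 3 UMIs over the class as the floor, 3.91 CPM, that is at least 1.23-fold lower than its mean of 4.81 CPM in immature cDC2. Igtp rested on 3 UMIs in mature cDC2, and its call was lost in 5 alternatives, among them DESeq2 (adjusted p = 0.129) and with doublets kept (adjusted p = 0.0651).

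The gain with maturation was larger in cDC1 than in cDC2 for 4 GTPases, by a test of the difference added after the data were seen. Its baselines were not gated alike, since Cxcl9-rich cells were kept out of immature cDC1 but not out of immature cDC2. All 4 genes had more RNA in early than in immature cDC1, and the part of this gate difference in the larger gain was not tested. Late against immature cDC1 minus mature against immature cDC2 was log2 4.01 for Gbp4 (SE 0.33, adjusted p = 2.20e-10), 3.76 for Gbp5 (SE 0.37, adjusted p = 8.80e-09), 3.34 for Gbp8 (SE 0.28, adjusted p = 2.89e-10) and 1.91 for Gbp2 (SE 0.42, adjusted p = 0.00216), where 8.17% of genes differed. In each of these genes the immature cDC1 level was the lower of the 2 immature levels. The mature levels were closer, with Gbp8 at 91.8 and 97.8 CPM in late cDC1 and 68.7 and 87.3 in mature cDC2, and Gbp5 overlapping between those classes. Gbp2 was higher in mature cDC2 than in late cDC1 in both libraries. Without the library block the Gbp2 difference was not past the threshold (adjusted p = 0.0554).

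**Figure D4:**
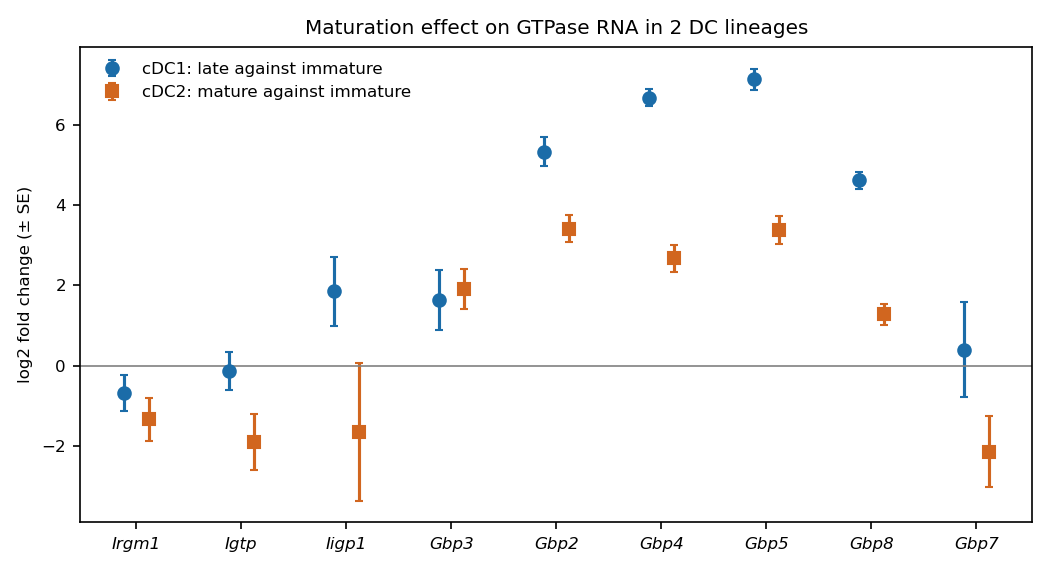
Log2 fold change (y axis, points with standard errors of the fit) of 9 GTPases (x axis) in late against immature cDC1 (circles) and mature against immature cDC2 (squares). Gbp4, Gbp5, Gbp8 and Gbp2 differ between the lineages by log2 4.01, 3.76, 3.34 and 1.91, and Irgm2 is left out because mature cDC2 had 0 UMIs of it.

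In lymphocytes another set led. T cells were above immature cDC1 for all 10 members, where 28.9% of genes were higher and 60% changed. Igtp had 60.9 and 75.7 CPM in T cells, its highest level in any class, against 7.14 and 8.06 CPM in immature cDC1 (log2 2.95, SE 0.15, adjusted p = 2.86e-17). Gbp7 had 54.7 and 69.7 CPM against 0.623 and 1.40 CPM (log2 5.71, SE 0.21, adjusted p = 4.75e-21). Irgm1 differed least, with 19.3 and 25.6 CPM in T cells against 9.83 and 12.2 CPM in immature cDC1 (log2 0.81, SE 0.19, adjusted p = 5.86e-04). The 5 neutrophil markers summed to 1444 CPM in T cells of library 1 and 20.7 in library 2. In library 1 S100a8 gave 545 and S100a9 898 CPM of this, while Retnlg, Csf3r and Ly6g were at 0 to 0.823. The part of such RNA in the T cell values was not tested.

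NK cells were above immature cDC1 in 7 members, the 6 Gbp genes and Igtp, where 20.9% of genes were higher, 26.1% lower and 47.1% changed. Gbp7 had 59.1 and 92.6 CPM in NK cells against 0.623 and 1.40 CPM (log2 5.83, SE 0.27, adjusted p = 4.81e-18), and its NK and T cell values overlapped. Gbp3 had 35.4 and 30.5 CPM in NK cells, its highest level in any class, against 0.890 and 2.10 CPM in immature cDC1 (log2 4.05, SE 0.35, adjusted p = 2.98e-11). Irgm1 had 10.3 and 7.03 CPM and Iigp1 0 and 4.69 CPM, and neither was past the threshold (adjusted p = 0.124 and 0.865). NK cells were the shallowest class, at medians of 2202 and 2317 RNA UMIs.

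Plasmacytoid DC, with 125 cells, were above immature cDC1 in 3 members, where 12.7% of genes were higher and 29.7% changed. Irgm1 had 33.5 and 52.3 CPM in plasmacytoid DC, at the level of early cDC1, against 9.83 and 12.2 CPM in immature cDC1 (log2 1.499, SE 0.37, adjusted p = 0.00184). Gbp8 had 33.5 and 40.2 CPM against 3.67 and 4.70 CPM (log2 2.69, SE 0.46, adjusted p = 2.00e-05). Gbp4 rested on 1 and 7 UMIs (adjusted p = 0.0397), its log2 value was 0.12 in library 1 alone and 3.16 in library 2 alone, and it was not past the threshold with lineage set by the higher antibody (adjusted p = 0.0877). The other 7 members had 1 to 7 UMIs in this class, and DESeq2 called 6 members in place of 3. NK markers summed to 234 CPM in plasmacytoid DC of library 1 and 20.1 in library 2.

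**Figure D5:**
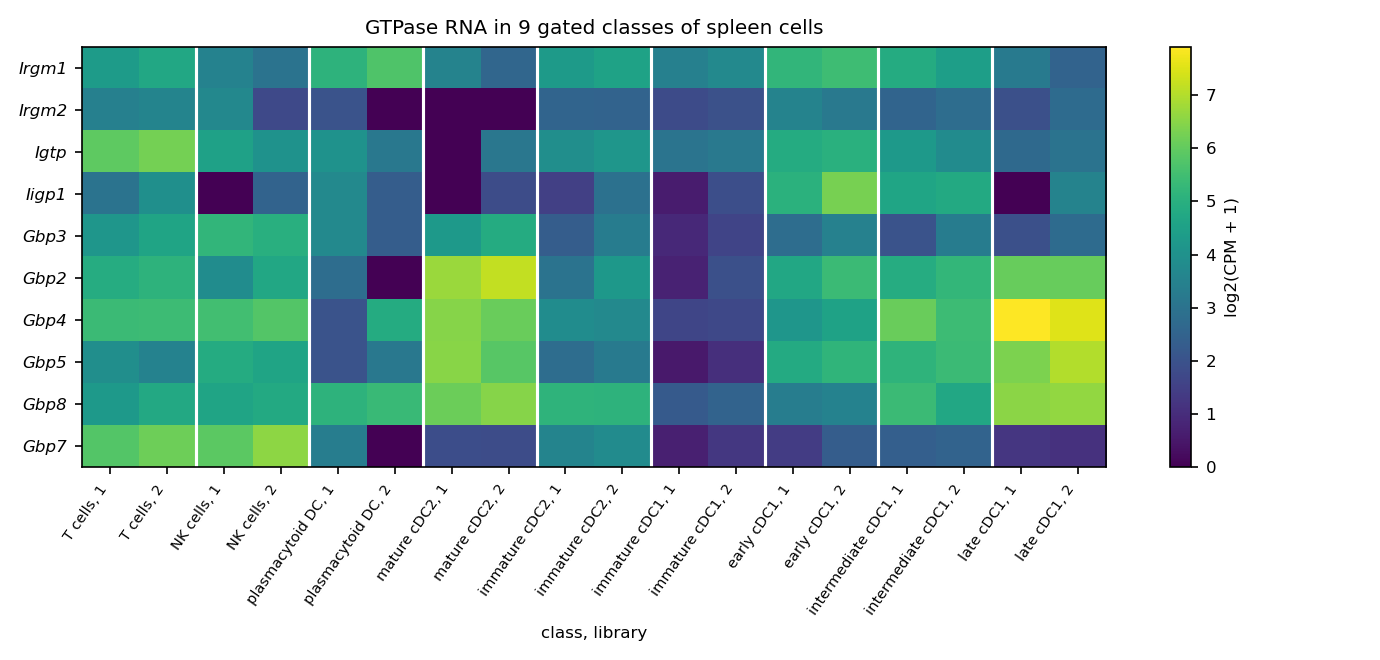
Heat map of log2(CPM + 1) (colour scale) for 10 GTPases (y axis) in 9 classes of each library (x axis, white lines between classes). Gbp4 is brightest in late cDC1, Gbp2 in mature cDC2, Igtp in T cells and Gbp7 in NK and T cells, while immature cDC1 are dark for all Gbp genes.

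Ordered over all 9 classes, immature cDC1, the only class limited to at most 9 Cxcl9 UMIs, had the lowest mean of the 2 libraries for each of the 6 Gbp members. For Gbp7 their 0.623 and 1.40 CPM overlapped with the 1.39 and 1.16 CPM of late cDC1, and for Gbp2 their values overlapped with those of plasmacytoid DC, at 6.08 and 0 CPM. For Gbp2 the order was mature cDC2, late cDC1, early cDC1, intermediate cDC1, T cells, NK cells, immature cDC2, plasmacytoid DC and immature cDC1, and mature cDC2, late cDC1, T cells and immature cDC2 stood apart from the class after them while the others overlapped with it. For Gbp4 it was late cDC1, mature cDC2, intermediate cDC1, NK cells, T cells, early cDC1, plasmacytoid DC, immature cDC2 and immature cDC1, where intermediate cDC1 overlapped with NK cells, early cDC1 with plasmacytoid DC and plasmacytoid DC with immature cDC2. Iigp1 was highest in early and then intermediate cDC1, both apart from the class below them, and the remaining 7 classes overlapped with a neighbour. Irgm1 was highest in plasmacytoid DC and early cDC1, which overlapped, and its lowest mean was in late cDC1, which overlapped with mature cDC2. As a description over 18 points, 9 classes of 2 libraries that share depth and library, the genes most like each member by Pearson r of log2(CPM + 1) were Gbp4 for Gbp5 (0.91), 4930523C07Rik for Gbp2 (0.91), Samsn1 for Gbp8 (0.95), A630081D01Rik for Gbp4 (0.93), Ezr for Gbp7 (0.96), Socs3 for Gbp3 (0.85), Polr3d for Igtp (0.89), Wdr4 for Irgm2 (0.87), Xxylt1 for Irgm1 (0.81) and the chemokine Cxcl11 for Iigp1 (0.73). Between members, Igtp and Irgm2 had r = 0.76 and Gbp4 and Irgm1 had r = -0.37.

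Further GTPases of the interferon-inducible families were mostly too low to test, with 5 of 16 past the count filter. Gbp9, from the same family as Gbp4 and Gbp8, had the late pattern, at 6.47 and 7.28 CPM in immature, 18.2 and 19.9 in early, 51.4 and 44.8 in intermediate and 109 and 97.8 in late cDC1. Its log2 value in late against immature cDC1 was 4.02 (SE 0.19, adjusted p = 1.92e-17). Ifi47, an immunity-related GTPase, had the early pattern, at 2.85 and 4.63 CPM in immature, 26.9 and 35.2 in early, 25.1 and 24.3 in intermediate and 4.17 and 6.99 in late cDC1. It differed by log2 3.13 in early (adjusted p = 2.85e-15) and 0.71 in late cells (adjusted p = 0.371). Gm12250 rose by log2 2.74 in early cDC1 (adjusted p = 1.04e-11) and had 1.39 and 1.16 CPM in late cells. Mx1, a GTPase of the myxovirus resistance family, was not past the threshold in early cells (log2 0.19, adjusted p = 0.440) and rose by log2 1.60 in late cells (adjusted p = 2.49e-09). In all, 3 of the 5 rose in early cDC1, where 4.54% of all genes rose, and 2 in late cDC1, where 21.2% did, and none of the 5 fell.

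The interferon pathway was followed through a list of 22 ligand, receptor, kinase and regulator genes. In early cDC1 9 were higher and 0 lower, with 4.54% of all genes higher and 2.72% lower, and the median was log2 0.18 against -0.03 over all genes. Irf1, which binds ISRE, had 100.4 and 102 CPM in early and 27.3 and 37.2 in immature cDC1 (log2 1.73, adjusted p = 5.55e-13). Socs1 and Socs3, inhibitors of the receptor kinases, rose by log2 2.06 and 2.10. The receptor subunits Ifngr1 and Ifngr2 had log2 values of -0.24 and 0.04 in early cells (adjusted p = 0.120 and 0.934). In late cDC1 13 genes were higher and 5 lower, where 21.2% of all genes rose and 27.4% fell. Irf1 reached 468 and 573 CPM in late cells (log2 4.15, adjusted p = 7.71e-23), whereas Ifngr1 had 84.9 and 139 CPM in late and 526 and 528 in immature cDC1 (log2 -2.09, adjusted p = 6.97e-15). Irf9 and Irf7 fell by 0.81 and 0.69 (adjusted p = 0.00301 and 0.0143). Ifng itself was at 385 and 583 CPM in NK cells and 66.6 and 51.8 in T cells, and at 0 to 6.99 CPM in the cDC1 stages.

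Of 20 tested interferon gamma targets 14 rose and 0 fell in early cDC1, where 4.54% of all genes rose and 2.72% fell. Because Cxcl9, the gene of the early gate, is itself such a target, the gate favoured this outcome. The early counts of these lists are thus a description of the gated cells. In late cDC1 14 rose and 3 fell, against 21.2% and 27.4% of all genes. Cxcl11 and Cxcl10, chemokines of the same receptor as Cxcl9, rose by log2 6.07 and 4.12 in early cells (adjusted p = 8.10e-13 and 4.61e-18). Cd274, which encodes PD-L1, rose by log2 2.66 in early and 5.08 in late cells. Among genes induced by type I interferon, a list that shares Mx1 and Mx2 with the further GTPases above, 17 of 22 tested were higher and 0 lower in early cDC1 (4.54% and 2.72% of all genes), with a median of log2 1.39 against -0.03 over all genes. In late cDC1 9 rose and 3 fell (21.2% and 27.4% of all genes), with a median of 0.66 against -0.25. The interferon-stimulated Oasl1 and Rsad2 rose in both, by log2 2.37 and 1.93 in early and 4.33 and 4.03 in late cells.

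Genes that act with these GTPases were counted beside shares over all genes of 4.54% higher and 2.72% lower in early and 21.2% higher and 27.4% lower in late cDC1. Of 17 autophagy genes, whose ubiquitin-like conjugation system places Gbp and Irg proteins on vacuoles in mice, 1 rose in early cDC1 (Sqstm1, log2 0.58, adjusted p = 4.62e-04). In late cDC1 9 rose and 2 fell, with Sqstm1 at log2 3.29 and Gabarapl1 at 2.69. Of 11 inflammasome genes 3 rose in early cells, and Casp4, the mouse caspase that senses bacterial lipopolysaccharide, rose by log2 3.04 in early and 4.15 in late cDC1. In late cells Nlrp3, Il1b and Pycard fell by 2.62, 1.88 and 1.19 on the log2 scale, and 2 genes of the list rose and 5 fell. Of 6 genes for prenylation, which anchors Gbp2 and Gbp5 to membranes, 0 passed in early cDC1 by edgeR or DESeq2, with 0 at an unadjusted p under 0.05 by either tool, and 1 rose and 2 fell in late cDC1.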

How the data were processed

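CITE-seq UMI counts were taken as the authors deposited them, in 1 matrix whose header, per the file headers, names Cell Ranger 3.1.0; the submitters' processing notes also name STAR, Seurat 3.1.4 and mm10. Barcodes were kept at 500 or more genes, 1000 or more RNA UMIs and less than 10% of UMIs from mitochondria, and doublets called by Scrublet in scanpy 1.11.5 were removed (546 of 12712 cells in library 1 and 1064 of 17040 in library 2), which left 28142 cells (12166 of 13822 barcodes and 15976 of 17968). The matrix held 99617992 RNA UMIs in library 1 and 129565040 in library 2.

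UMIs were summed per class and library (18 sums) and fitted with edgeR 4.0.16 in R 4.3.3 by the quasi-likelihood test, with TMM scaling, the edgeR filter on low counts and library as a block, since all classes come from the same libraries. Of 36 pairs of classes, 17 had deviations correlated above 0.1 between their libraries (median 0.0957). After leaving out 11 genes that define gates, 10987 genes were tested and adjusted together. CPM are UMIs of a gene scaled to the summed RNA UMIs of the class and library, with no pseudocount. For shares at equal depth, cells were thinned to 2000 UMIs and shallower cells left out. Intervals are 95% Clopper-Pearson, from scipy 1.17.1, and the floor is 3 counts.

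The cDC2 gate was at most 2 XCR1 and at least 3 CD172a antibody UMIs with at least 1000 CPM of H2-Aa, and mature cDC2 passed the late Ccr7 and Fscn1 thresholds. Immature cDC2 had at most 1 Ccr7 and at most 1 Fscn1 UMI, with no limit on Cxcl9. Plasmacytoid DC had at least 5 Siglech UMIs, T cells at least 3 Cd3d, Cd3e and Cd3g UMIs, and NK cells at least 2 Ncr1 and Klrb1c UMIs. A total of 27 cells passed 2 gates and were counted in the first, and 23 cDC1 were in no stage. Values are given for all 10 members and for the lists of other GTPases and interferon signalling, and for each member the 3 genes most like it were found, of which the first is named; other listed genes were named after their values were seen. Members and lists were chosen with earlier results of these data known. The procedure was tested on simulated data. Alternatives were DESeq2 1.42.0, other scaling, filters, gates and doublet handling, and leaving out each library.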

Additional observations from a re-analysis of the deposited data

Results flagged for a closer look

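The effect of maturation on 4 GTPases differed between the DC lineages by the test of the difference itself (late against immature cDC1 minus mature against immature cDC2, edgeR quasi-likelihood test). The difference was log2 4.01 for Gbp4, 3.76 for Gbp5, 3.34 for Gbp8 and 1.91 for Gbp2. All 4 were larger in cDC1 in library 1 and in library 2. Cxcl9-rich cells were kept out of immature cDC1 but not out of immature cDC2, and the part of this gate difference in the result was not tested.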

How the results depend on the processing

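Limits first: late cDC1 held 10 or fewer UMIs of Gbp3, Gbp7, Irgm1, Irgm2, Igtp and Iigp1, plasmacytoid DC 8 or fewer of all members but Gbp8 and Irgm1, and mature cDC2 6 or fewer of Gbp7 and the Irg members, so modest differences there were not detectable at this depth. Of refitted log2 values, 1408 kept direction and side of the threshold, 21 called ones lost the call and 45 gained one. A further 21 changed sign without a call in either fit, and 5 reversed sign with a call in the main fit or the refit. Intermediate against early cDC1 had 8 GTPases past the threshold with early cells at 20 or more Cxcl9 UMIs and 8 at 40 or more, against 5, and plasmacytoid DC had 6 with DESeq2, against 3. Signs reversed with early cells at 20 or more for Gbp5 (intermediate against early, log2 -0.72), and at 40 or more for Gbp5 (-1.71) and Gbp4 (-0.14) in that comparison and for Gbp2 (-0.46) and Gbp5 (-0.16) in late against early; the cause was not tested. Without the library block, which pairs classes of the same library, 4 GTPases passed in late against intermediate (against 6), 4 in intermediate against early (5), 9 in immature cDC2 (10) and 3 in the lineage difference (4), and the other comparisons had the same number. Genes past the threshold in early against immature cDC1 numbered 1325 with gates on scaled UMIs and 493 with DESeq2 (against 798), and in intermediate against early 2768 with lineage by the higher antibody and 1121 at 40 or more Cxcl9 UMIs (against 1766). Leaving out a library changed the sign of 0 of 162 called values and moved 29 by more than 1.5 times in fold. The median of all genes in late against immature cDC1 stood at -0.25 on the log2 scale under TMM, at -0.07 under RLE and at -0.37 when only totals were used. Gbp2, Gbp4, Gbp5 and Gbp8, the members past the threshold in that comparison, kept their direction. That does not extend to the members not past it. The share of calls that were higher was 62.6% with TMM and 41.0% with totals in early, 43.7% and 37.2% in late cDC1, 42.9% and 72.4% in plasmacytoid DC, 44.5% and 67.0% in NK cells, 48.1% and 60.7% in T cells and 48.8% and 62.3% in immature cDC2. With RLE it was 53.5% in late against immature (TMM 43.7%), 54.2% in late against early (TMM 44.3%), 55.7% in late against intermediate (TMM 45.5%), 57.0% in plasmacytoid DC, 55.02% in NK cells and 56.8% in mature cDC2 (TMM 43.9%).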
